A study of Mus musculus with 4 samples.

Results

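The 35 genes described here encode proteins that carry a cell through G2 phase and mitosis. They were taken as a list of names known for this role, with no threshold on a measured value, and all 35 were found among the 32285 genes of the count matrices. The study cultured mammary organoids from virgin female mice aged 9 to 11 months. The mice were wild-type (WT) or Brca2mut/WT, that is, heterozygous for a germline truncation of Brca2 on one allele. Organoids of each genotype were left untreated (control) or given 1 mM hydroxyurea (HU), an inhibitor of ribonucleotide reductase that slows DNA replication, for 24 h, followed by 4 days of recovery before passaging, and this was repeated at each of the serial passages. They were frozen, thawed and cultured for 3 days before droplet single-cell RNA sequencing. There was 1 library per condition, so the 4 libraries were WT control, WT HU, Brca2mut/WT control and Brca2mut/WT HU. The paper names 3 mice per condition and passages 0 and 4, whereas the sample titles give 2 replicates per library and name no passage. It is thus not given whether an HU library holds organoids of passage 0, which had fewer HU treatments, of passage 4 or of both. In each library 4 antibody tags (951 to 954) marked pools of cells, but no key ties a tag to a mouse or a passage. Differences between conditions therefore have no replicate check, and they are given below with intervals that cover counting error only.

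Entry into mitosis is driven by Cdk1 bound to cyclin A or cyclin B, and it is opposed by Wee1-type kinases and promoted by Cdc25 phosphatases. Chromosomes then condense, kinetochores assemble on centromeric chromatin and attach to spindle microtubules, and the anaphase-promoting complex with Cdc20 releases the sister chromatids by marking securin and cyclin B for destruction. Most of the genes are transcribed late in the cell cycle, under the DREAM and MuvB-B-Myb-FoxM1 complexes, so that their RNA marks cells in G2 and M. In the mammary epithelium both the basal layer and the luminal layer contain dividing cells, and hormone receptor-negative (HR-) luminal cells hold the alveolar progenitors.

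The 4 libraries held 33268 cells and 7639 to 9358 cells each, with a median of 25444 to 29087 unique molecular identifiers (UMIs, 1 per captured RNA molecule) per cell. Cells with at least 1000 detected genes and under 5% mitochondrial UMIs were used in 2 ways, with the study's upper limit of 6000 genes (17360 cells) and without it (25272 cells). Basal cells had at least 500 CPM of Krt14 (its UMIs over all gene UMIs of the cell, scaled to 1e6), HR+ luminal cells at least 300 CPM of Areg, and HR- luminal cells under 300 CPM of both. With the limit these were 2217 basal, 569 HR+ luminal and 14008 HR- luminal cells, and 128 basal and 38 HR+ cells lay within 20% of their cut. With the limit separate marker lists followed these names: the basal list summed to 3905 to 4471 CPM in basal cells and at most 171 CPM in luminal cells, the HR- list to 22980 to 27226 CPM in HR- cells and at most 2705 CPM elsewhere, and the HR+ list to 4742 to 7728 CPM in HR+ cells, 987 to 1181 CPM in basal cells and at most 185 CPM in HR- cells. Without it the names were borne out less well. Basal cells then held 4004, 3129, 3475 and 2889 CPM of the HR- list in the 4 libraries, beside 3881 to 4363 CPM of the basal list. HR+ cells held 4801, 3105, 2747 and 2500 CPM of the HR- list, beside 4073, 4526, 6004 and 4912 CPM of the HR+ list. In WT control HR+ cells the HR- list was thus the higher. With the limit HR+ cells also held 702 to 1661 CPM of Dcn, a fibroblast marker. Lum was at 0 there and Col1a1 at 0.24 CPM or less. Without the limit the fibroblast list, which holds Dcn, summed to 513, 779, 1742 and 400 CPM in HR+ cells. The part of this in the values of HR+ cells was not tested. Only 129 of 33139 barcodes occurred in more than 1 library. No doublet caller was run, and the share of cells carrying more than 1 antibody tag is given beside some of the results only.

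In cells of 1000 to 6000 genes, the 35 genes together were highest in basal cells. In HR- luminal cells they summed to 448 CPM in WT control (95% Poisson interval 444 to 452), 416 in WT HU (412 to 421), 519 in Brca2mut/WT control (514 to 524) and 356 in Brca2mut/WT HU (352 to 361). In basal cells they summed to 688 (675 to 701), 1129 (1114 to 1144), 768 (747 to 789) and 564 (547 to 582) CPM in the same order. In HR+ luminal cells the sums were 617 (594 to 641), 422 (401 to 443), 203 (187 to 220) and 347 (325 to 370) CPM. Basal cells were thus above HR- cells in all 4 libraries, whereas the HR+ sum was above HR- in WT control, below it in Brca2mut/WT control and within overlapping intervals of it in both HU libraries. The HR+ values rest on 616 to 2604 UMIs of the 35 genes per library, against 25291 to 46493 in HR- cells.

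**Figure D1:**
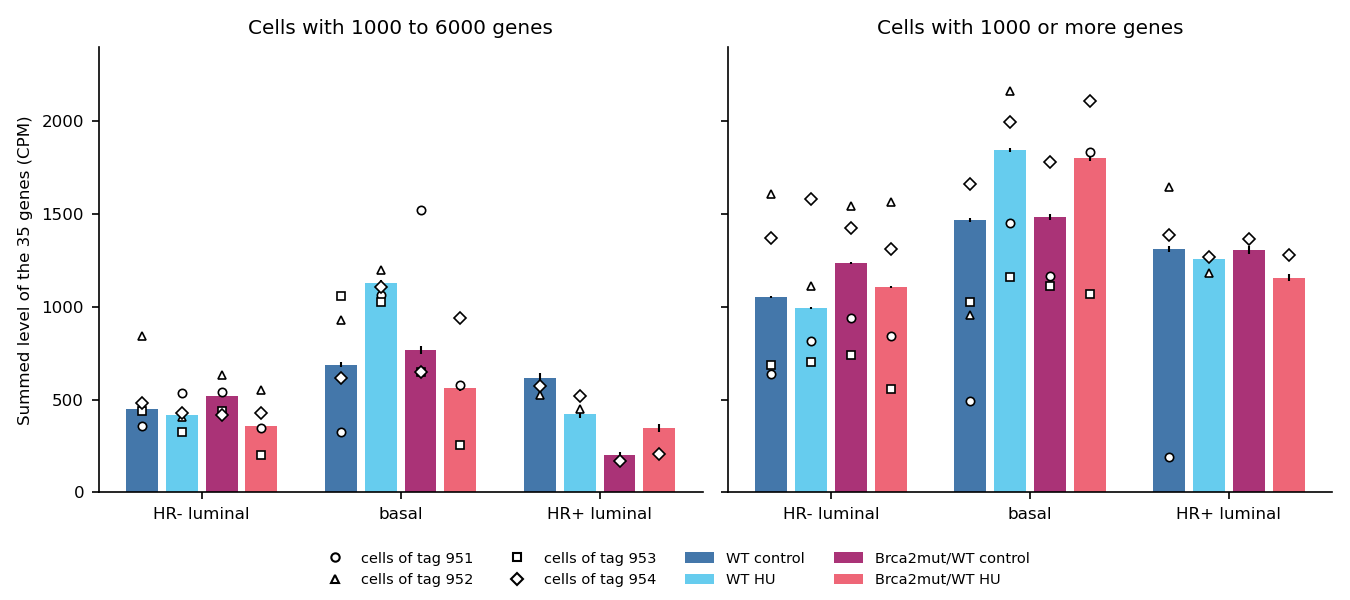
Summed level of the 35 mitotic genes (CPM, vertical axis) in each lineage and library, for cells of 1000 to 6000 genes (left) and of 1000 or more genes (right); bars are the libraries, black lines 95% Poisson intervals, and white symbols the cells of each antibody tag with at least 20 cells. Every bar is higher without the gene limit, and the tags of 1 library spread more widely than the Poisson intervals.

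Without the limit of 6000 genes every sum was higher. HR- luminal cells held 1054, 995, 1235 and 1107 CPM in WT control, WT HU, Brca2mut/WT control and Brca2mut/WT HU. Basal cells held 1468, 1844, 1483 and 1804 CPM, and HR+ luminal cells 1313, 1257, 1306 and 1158 CPM. In proportion the libraries lay closer together than with the limit in each lineage, and the HR+ sums, which spanned 203 to 617 CPM with the limit, lay within 1158 to 1313 CPM without it.

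In cells of 1000 to 6000 genes each group by role was higher in basal than in HR- cells of the same library, but the libraries were not ordered alike in every group. The degradation genes Cdc20 and Ube2c summed to 48.4, 53.3, 62.2 and 44.3 CPM in HR- cells and to 79.7, 138, 109 and 54.0 CPM in basal cells. In HR- cells only this group was higher in WT HU than in WT control. The chromosome genes Top2a and Mki67 summed to 51.4, 44.8, 53.9 and 34.4 CPM in HR- cells and to 61.1, 126, 69.6 and 56.0 CPM in basal cells. The 6 cyclins and their partners (Ccna2, Ccnb1, Ccnb2, Cdk1, the Cdk1 subunit Cks2 and the activating phosphatase Cdc25c) summed to 116, 107, 127 and 95.9 CPM in HR- cells of 1000 to 6000 genes and to 172, 272, 179 and 152 CPM in basal cells. The 6 mitotic kinases (Aurka, Aurkb, Plk1, Ttk, Bub1 and Bub1b, the last a checkpoint pseudokinase) summed to 21.3, 20.8, 24.3 and 16.5 CPM in HR- cells and to 36.5, 62.4, 37.8 and 26.1 CPM in basal cells. Each of these groups was therefore higher in basal than in HR- cells of the same library. Brca2mut/WT HU was the lowest library for each of them in both lineages with the limit, and in neither lineage without it.

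The 6 centromere and kinetochore genes (the centromeric histone Cenpa, the motor Cenpe, Cenpf, the microtubule-binding Ndc80 and Nuf2, and Birc5 or survivin) held 96.0, 89.3, 120 and 81.5 CPM in HR- cells and 161, 257, 180 and 145 CPM in basal cells. The 10 spindle genes (the motors Kif11, Kif20a, Kif20b, Kif23 and Kif2c, and Tpx2, Nusap1, Hmmr, Prc1 and Tacc3) held 92.6, 82.1, 107 and 67.7 CPM in HR- cells and 138, 215, 157 and 102 CPM in basal cells. The 3 cytokinesis genes, Anln (anillin, of the cleavage furrow), Ect2 and Racgap1 (both of the RhoA switch at the furrow), held 22.1, 19.1, 23.4 and 15.9 CPM in HR- cells and 39.0, 58.8, 35.2 and 29.3 CPM in basal cells. With the limit, WT HU was the highest library of these 3 groups in basal cells and Brca2mut/WT control in HR- cells. Brca2mut/WT HU was the lowest in both with the limit and in neither without it. Without it the kinetochore genes held 220, 205, 272 and 240 CPM in HR- cells and 319, 381, 317 and 381 CPM in basal cells. Of the single genes with the limit, 32 of 35 were highest in Brca2mut/WT control among HR- cells, as were 29.7% of 13433 genes with at least 50 UMIs in 1 of the libraries, and 14 of the 35 had an interval clear of those of every other library (6.02%). Among basal cells 34 of 35 were highest in WT HU (31.1% of 11111 genes), and 23 were clear of the other libraries (6.61%). Without the limit all 35 were highest in Brca2mut/WT control among HR- cells, 24 of them clear. Among basal cells 19 were highest in WT HU, 4 of them clear, and 15 in Brca2mut/WT HU. The shares over all genes were not counted there.

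The RNA of the 35 genes sat in few cells. Cells were thinned to 5000 UMIs, and those with fewer were left out of this and the later thinned results. In the 4 libraries these were 124, 122, 288 and 198 HR-, 72, 49, 24 and 32 basal, and 18, 9, 11 and 29 HR+ cells. Among the remaining HR- cells of 1000 to 6000 genes, 49.5%, 56.0%, 53.6% and 54.7% held no UMI of any of the genes. Cells with 10 or more were 160, 133, 142 and 105, or 3.92%, 3.99%, 4.30% and 4.11% of cells, and they held 64.6%, 68.3%, 72.0% and 66.6% of all UMIs of the 35 genes. In basal cells 7.54%, 13.6%, 6.08% and 5.21% of cells passed 10 UMIs. Without the gene limit the shares were 8.84%, 8.52%, 9.96% and 10.1% in HR- cells and 15.7%, 21.9%, 13.7% and 17.0% in basal cells, again higher in basal cells of each library.

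Cells in G2 and M were then marked without the 35 genes, by the 26 other genes of the Seurat G2/M list, as the cells with at least 10 thinned UMIs of that list (the top 10% of cells); thinned cells without the limit needed 16 UMIs. Among HR- cells of 1000 to 6000 genes, 7.34%, 9.42%, 9.08% and 10.3% were high by this list. The 35 genes summed to 3966, 3167, 4311 and 2638 CPM in these cells and to 143, 119, 127 and 115 CPM in the rest. The high cells held 70.3%, 73.9%, 77.1% and 70.0% of the UMIs of the 35 genes. In basal cells 18.4%, 24.9%, 15.5% and 15.6% were high, and their sums were 2604, 3412, 3127 and 2262 CPM. Brca2mut/WT HU, the lowest library for the sum in HR- cells, thus had the lowest level within the high HR- cells, while the interval of its share (9.15% to 11.6%) overlapped those of WT HU and Brca2mut/WT control. Many HR- cells lay at the cut or 1 UMI below it (142, 155, 157 and 148 cells). With the top 5% of cells the HR- shares were 3.72%, 4.05%, 4.45% and 4.39%. The levels were then 7052, 6404, 7846 and 5797 CPM, again lowest in Brca2mut/WT HU.

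In HR+ cells of 1000 to 6000 genes the list marked 24.7%, 36.5%, 31.9% and 35.1% of cells, but the 35 genes reached only 1763, 878, 284 and 670 CPM in them, below the 2638 to 4311 CPM of HR- cells marked the same way. Members of that list, Rangap1 and Tubb4b, were higher in HR+ than in HR- cells (log2 fold changes 1.60 ± 0.07 and 1.12 ± 0.05, SE, n = 4 libraries; edgeR, described below). Without the gene limit 12.9% to 16.5% of HR+ cells were high and held 5037, 4752, 5848 and 4966 CPM. The basal shares without the limit were 14.6%, 21.8%, 13.3% and 18.2%, each above the HR- shares of 7.79%, 8.18%, 9.25% and 9.70%. Marked by 31 further mitotic genes instead, HR- cells without the limit gave 9.53%, 9.32%, 10.5% and 10.8%.

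Each of the 35 genes was concentrated in the G2/M-high cells more than nearly all other genes. Those cells were 8.87% of HR- cells of 1000 to 6000 genes, and a gene had a median of 9.40% of its UMIs in them (15132 genes). Cks2 had 45.5%, Cdk1 54.3% and Racgap1 63.7%, while Nusap1 had 85.8%, Cenpf 88.3% and Hmmr, a spindle protein, 90.2%. Without the gene limit the median of all genes was 13.0% (16484 genes), Cks2 had 60.5% and Nusap1 86.6%. After Cks2, which had the largest share of its RNA outside the G2/M-high cells at both limits, came Cdk1 with the limit and Tacc3 (67.5%) and Cdk1 (68.2%) without it. Cks2 and Ccnb1 have closely similar copies in the mouse genome, and how reads were split among them is not given, so their levels are less certain than those of the other genes.

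Over HR- cells thinned to 5000 UMIs, the 10 other genes whose UMIs were most correlated with the sum of the 35 were Pclaf (Pearson r = 0.64), Cdca8 (0.62), Cdca3 (0.61), Stmn1 (0.58), Hmgb2 (0.56), Pttg1 (0.55), Pbk (0.55), Spc24 (0.54), H2afz (0.53) and Cdkn3 (0.53). Pclaf binds the replication clamp, Cdca8 (borealin) is a partner of Aurkb and Birc5, and Pttg1 is securin. Against the sum of the other 34, the genes themselves ran from 0.26 for Ttk, the checkpoint kinase Mps1, to 0.68 for Birc5. These are descriptions over cells that share 4 libraries, and genes of few UMIs are bound to have low values.

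The genes differed in their level in cells high only for S-phase genes, relative to cells high only for G2/M genes. HR- cells without the gene limit were split by the S-phase list and the other G2/M list, each at its own top 10%, into 186 to 259 cells per library high for S only, 154 to 231 high for G2/M only and 204 to 228 high for both. The 35 genes summed to 1220, 1206, 1218 and 1029 CPM in the S-only cells, to 6327, 7033, 7185 and 6438 CPM in the G2/M-only cells, and to 235, 168, 212 and 206 CPM in cells high for neither. The S-only level was thus above that of cells high for neither in each library. That it was far below the G2/M-only level follows in part from the split, since S-only cells were those under the cut of the other G2/M list. S-high cells over that cut were counted as high for both, where the 35 genes summed to 6273, 6364, 6872 and 6795 CPM. The split therefore does not measure the RNA of all cells in S phase.

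Cenpa was the gene with the least RNA in S-only cells relative to G2/M-only cells. It had 11.1 CPM in cells high for neither list, 23.5 in S-only cells, 208 in cells high for both and 367 in G2/M-only cells, so its S-only level was 6.39% of the G2/M-only level (4.95% to 9.12% over the libraries). Cenpf (7.20%), Cdc20 (7.21%), the microtubule depolymerase Kif2c (7.35%), Ccnb1 (7.69%), Plk1 (8.75%), Hmmr (9.33%) and Ube2c (9.52%), the ubiquitin-conjugating enzyme of the anaphase-promoting complex, followed. At the other end Top2a, the topoisomerase that untangles replicated DNA, had 9.82 CPM in cells high for neither, 140 in S-only cells, 565 in cells high for both and 304 in G2/M-only cells, and its ratio was 46.2% (40.2% to 53.8%). Cdk1 had 41.6% (36.5% to 49.3%), the checkpoint kinase Bub1 37.5% (30.6% to 44.5%), Aurkb 35.7%, Ndc80 34.7% (28.9% to 50.1%), the bipolar spindle motor Kif11 31.8%, Ttk 30.7% and Nuf2 28.2%. The ranges over the libraries did not overlap between Cenpa and any of Ndc80, Bub1, Cdk1 and Top2a.

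**Figure D2:**
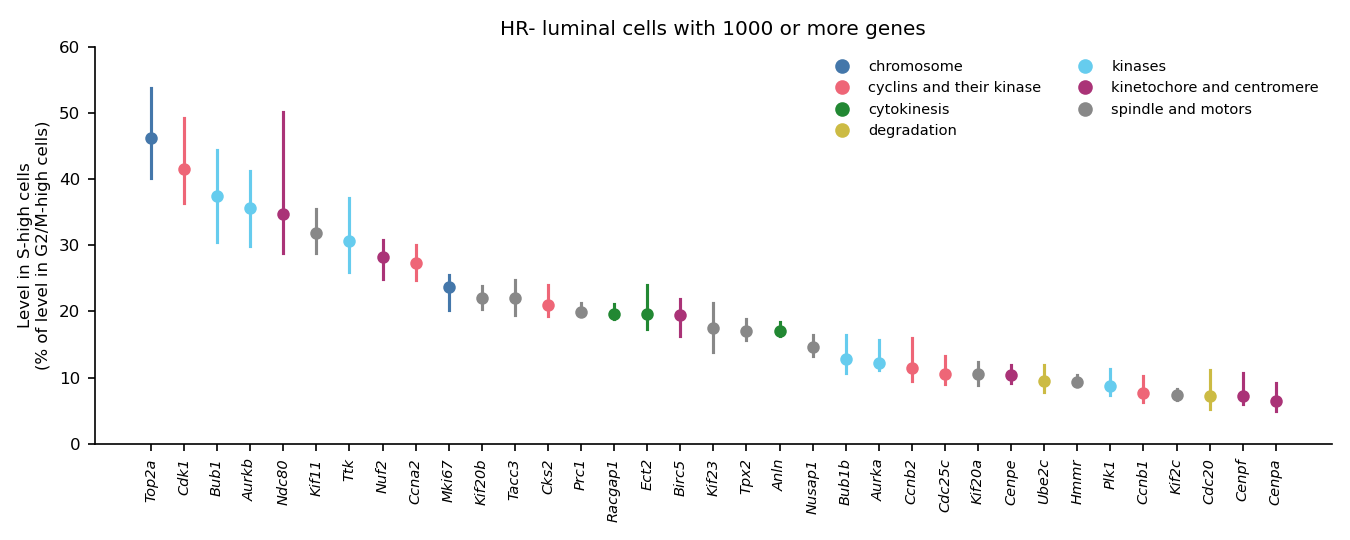
Level of each of the 35 genes in HR- luminal cells high only for the S-phase list, as a percent of its level in cells high only for the other G2/M genes (vertical axis, cells of 1000 or more genes); points pool the 4 libraries, lines run from the lowest to the highest library, and colours give the role of the protein. Cenpa is lowest at 6.39% and Top2a highest at 46.2%.

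Promoter sequence is shown for 3 genes at each end of that order, since DREAM and MuvB complexes bind the cell cycle homology region, TTTGAA, and the factor NF-Y binds CCAAT. Each is the stretch from 100 bases to 1 base before the transcription start in RefSeq (GRCm38.p6), given 5′ to 3′ on the gene's strand, and capitals mark TTTGAA and CCAAT or their reverse complements TTCAAA and ATTGG. They lie at chr5:30666786-30666885 (+) for Cenpa, chr1:189688087-189688186 (-) for Cenpf, chr4:118437344-118437443 (-) for Cdc20, chr2:127831860-127831959 (-) for Bub1, chr10:69352913-69353012 (-) for Cdk1 and chr11:99024190-99024289 (-) for Top2a.
Cenpa: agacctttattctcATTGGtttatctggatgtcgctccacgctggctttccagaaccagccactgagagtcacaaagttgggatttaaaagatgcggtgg
Cenpf: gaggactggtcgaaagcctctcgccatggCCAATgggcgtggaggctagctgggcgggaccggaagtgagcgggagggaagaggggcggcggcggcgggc
Cdc20: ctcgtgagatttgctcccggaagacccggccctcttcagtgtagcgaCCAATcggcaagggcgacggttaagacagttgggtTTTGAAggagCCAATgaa
Bub1: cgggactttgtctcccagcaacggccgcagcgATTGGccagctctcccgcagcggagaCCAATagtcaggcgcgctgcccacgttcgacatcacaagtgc
Cdk1: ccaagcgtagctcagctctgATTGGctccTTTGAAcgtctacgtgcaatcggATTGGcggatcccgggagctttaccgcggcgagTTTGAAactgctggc
Top2a: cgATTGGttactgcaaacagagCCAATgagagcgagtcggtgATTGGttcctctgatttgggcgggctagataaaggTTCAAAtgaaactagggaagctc
Matches occurred at both ends of the order: Cdc20, Cdk1 and Top2a had TTTGAA and CCAAT within these stretches, Bub1 had CCAAT alone, and Cenpf and Cenpa had CCAAT here and TTTGAA just after the start. RefSeq promoters of 250 bases before to 50 after the start were held for 30 of the 35 genes (none for Cdc25c, Ccna2, Aurkb, Kif20a and Tpx2). On either strand TTTGAA was found in 22 of the 30 (73.3%), against 18.1% of all 27025 promoters and 11.9% of those of 11250 other genes with at least 50 UMIs in HR- cells. CCAAT was also found in 22 of 30, against 37.9% of all promoters, and both motifs in 18 of 30 (60%), against 7.12%. No match of TTTGAA shared a base with one of CCAAT in the stretches shown. Birc5, Bub1, Ccnb1, Cenpe, Cks2, Nuf2, Nusap1 and Tacc3 had no TTTGAA in the window searched, which says only that these letters are not there.

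The limit of 6000 genes removed most of the RNA of the 35 genes. Cells over the limit were 7607 of 24401 cells of the 3 lineages (31.2%) and held 56.1% of all UMIs, but 913674 of 1113406 UMIs of the 35 genes (82.1%). The share removed was 81.2% in HR- cells, 81.2% in basal cells and 92.8% in HR+ cells, and 80.1%, 77.8%, 81.4% and 89.0% in the 4 libraries. Brca2mut/WT HU lost the most, and it also had the most cells over the limit (40.2% against 27.9% to 30.5% of kept cells in the other libraries). By gene the share ran from 75.0% for Cks2, 75.4% for Ccnb2 and 75.8% for Cenpa to 86.9% for Kif11, 87.0% for Top2a and 87.4% for Aurkb.

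The level of the 35 genes was lowest in cells of intermediate size and high in the largest and the smallest. In cells of the 3 lineages with 3000 to 4000 genes the sums were 176, 203, 197 and 316 CPM, in those of 5000 to 6000 genes 705, 793, 748 and 420 CPM, and in those over 8000 genes 1980, 1899, 2313 and 1891 CPM. Cells of 1000 to 2000 genes held 1401, 1128, 1459 and 1053 CPM, but they had a median of 3105 to 3454 UMIs, 83.9% to 91.5% of them carried no antibody tag, and they gave only 0.364% to 0.666% of the UMIs of the 35 genes. Of the cells over 8000 genes 59.7%, 48.5%, 23.8% and 33.7% carried more than 1 tag, as did 17.6% of all cells over 6000 genes. In cells with exactly 1 tag the share of the UMIs of the 35 genes over the limit was 79.2%, from 29.5% of cells, so it was nearly as large without the cells of more than 1 tag.

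**Figure D3:**
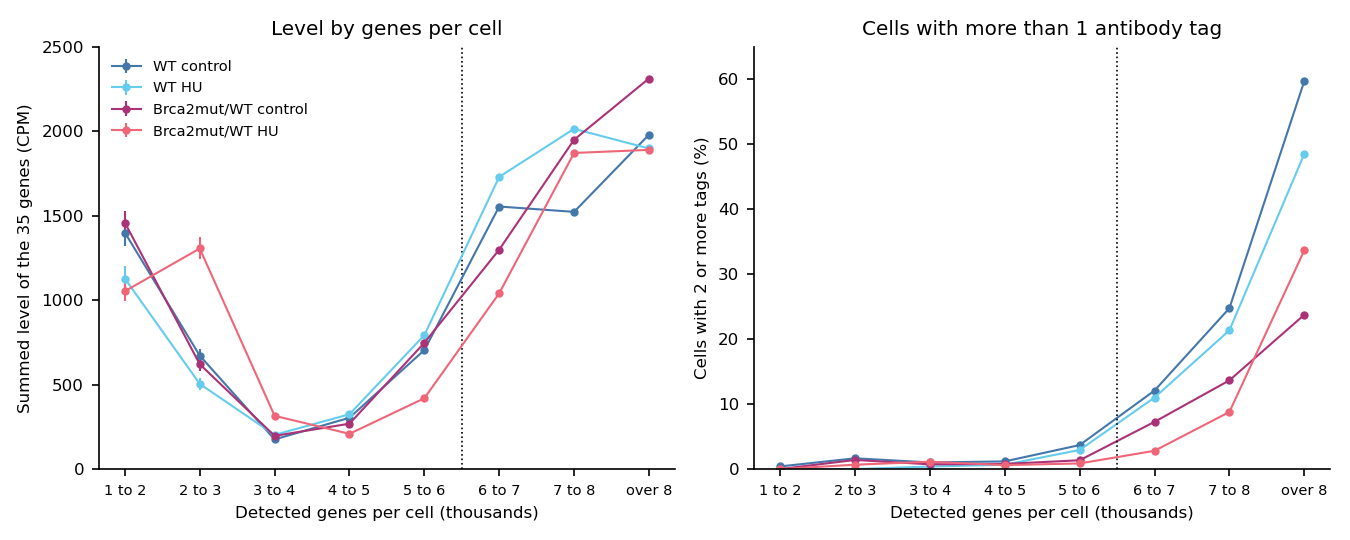
Left, summed level of the 35 genes (CPM) by detected genes per cell (in units of 1000) in the 4 libraries, with 95% Poisson intervals; right, percent of cells with 2 or more antibody tags in the same bins. The dotted line is the limit of 6000 genes, beyond which each library stays above 1000 CPM.

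HR- luminal cells over the limit were compared with those of 1000 to 6000 genes by edgeR's quasi-likelihood test on UMIs summed per library, with the library as a block and Benjamini-Hochberg adjustment over all genes tested. All 35 genes were higher in the larger cells, against 25.8% of 15672 genes higher and 24% lower, with a median log2 fold change of 1.99. The change was 2.52 ± 0.06 (SE, n = 4 libraries) for Aurkb (edgeR adjusted p = 2.4e-07), 2.42 ± 0.07 for Top2a and 2.40 ± 0.07 for Kif11. It was 1.28 ± 0.05 for Ccnb2 and 1.21 ± 0.04 for Cks2 (edgeR adjusted p = 8.3e-07). Genes of the related lists were higher too: 31 of 31 further mitotic genes (median 1.96), 26 of 26 other G2/M genes (0.93) and 41 of 42 S-phase genes (1.21), with 14 of 17 regulators of the transcription of mitotic genes and 9 of 12 checkpoint and p53 genes higher and 1 lower in each of these last lists. Since libraries pool mice, these and the p-values below measure only the spread between libraries, which differ in condition.

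Basal cells had more RNA of the mitotic genes than HR- luminal cells. With the gene limit 29 of the 35 genes were higher and none lower (edgeR, same design; 32% of 14761 genes were higher and 32.6% lower), at a median log2 fold change of 0.80 against -0.01 over all genes. Without the limit 31 were higher and none lower (33.9% and 34% of 16125 genes), at a median of 0.58. Of the 29 genes called with the limit, 1 was not called without it. At an unadjusted p under 0.05 no gene of the 35 was lower in either case, as no log2 fold change was below 0.

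The 2 largest differences were of genes that act in cytokinesis. Kif23, the motor of the central spindle, had 4.46, 3.87, 5.31 and 3.04 CPM in HR- cells and 10.6, 18.6, 13.1 and 10.1 CPM in basal cells, with no overlap, and a log2 fold change of 1.53 ± 0.18 (edgeR adjusted p = 0.00014). Anln had 7.43, 6.16, 8.21 and 4.42 CPM in HR- cells and 19.8, 27.1, 18.8 and 15.2 CPM in basal cells, again with no overlap, and a change of 1.52 ± 0.15 (edgeR adjusted p = 5.3e-05). Of the other cytokinesis genes, Ect2 was higher by 0.57 ± 0.16 and Racgap1, at 0.41 ± 0.22, did not pass with the limit.

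Of the kinases, Bub1b (1.16 ± 0.22), Bub1 (1.01 ± 0.24), Aurkb (0.96 ± 0.19), Ttk (0.90 ± 0.23) and Plk1 (0.85 ± 0.16) were higher in basal cells, and Aurka, of the spindle poles, at 0.34 ± 0.18 did not pass with the limit but did without it (0.46 ± 0.08). All 6 kinetochore genes were higher, from Ndc80 (1.06 ± 0.21) and Nuf2 (0.99 ± 0.26) to Birc5 (0.70 ± 0.16). Both genes of the anaphase-promoting machinery were higher, Cdc20 by 1.06 ± 0.13 and Ube2c by 0.50 ± 0.18. Ccnb1 was higher by 1.09 ± 0.15, Ccna2 by 0.86 ± 0.22, Cks2 by 0.79 ± 0.11, Cdc25c by 0.63 ± 0.17 and Ccnb2 by 0.40 ± 0.14, while Cdk1 at 0.33 ± 0.16 passed only without the limit (0.36 ± 0.10).

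The spindle genes were split. Kif2c (1.15 ± 0.17), Kif20b (1.10 ± 0.14), Kif20a (0.89 ± 0.18), Tpx2 (0.80 ± 0.16), Tacc3 (0.66 ± 0.13), Prc1 (0.60 ± 0.16) and Hmmr (0.50 ± 0.16) were higher beside Kif23, whereas Kif11 (0.26 ± 0.23) and Nusap1 (0.17 ± 0.20) passed at neither limit. Of the chromosome genes Top2a was higher by 0.76 ± 0.20. Mki67, which coats mitotic chromosomes and is the usual proliferation marker, was at 0.43 ± 0.17 with the limit (edgeR adjusted p = 0.057) and 0.08 ± 0.13 without it (edgeR adjusted p = 0.59).

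**Figure D4:**
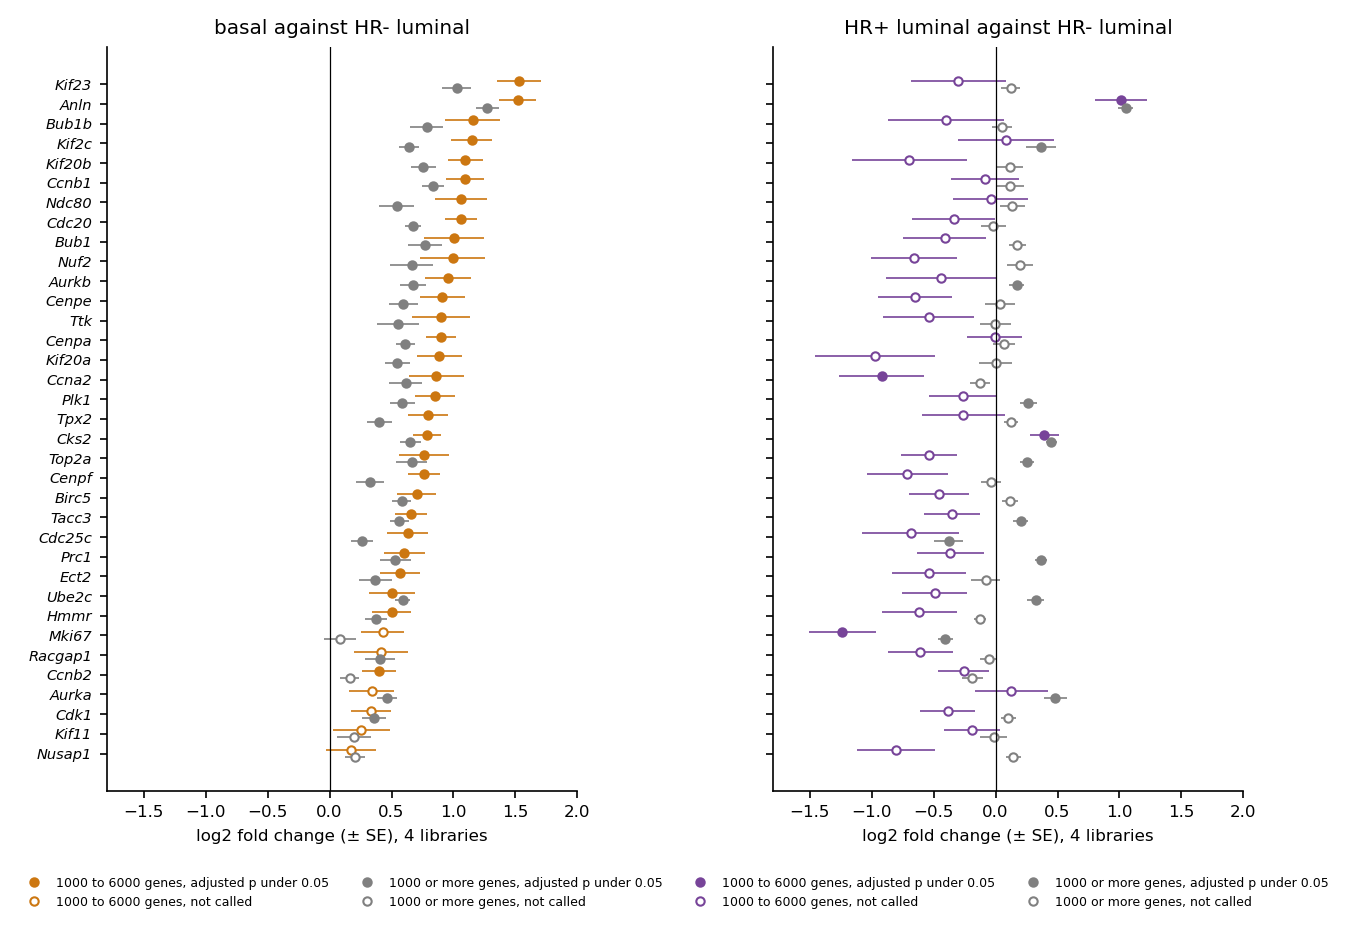
Log2 fold change of each of the 35 genes between basal and HR- luminal cells and between HR+ and HR- luminal cells (edgeR, 4 libraries), with lines of 1 SE; colour is for cells of 1000 to 6000 genes, grey for 1000 or more, and filled points have an adjusted p under 0.05. Every basal point lies above 0, and the HR+ points lie on both sides of it with Anln highest.

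The related lists moved with the 35 genes in basal cells. With the limit 21 of 31 further mitotic genes were higher and 1 lower (median 0.80), the exception being Spag5 (-2.01 ± 0.12), the spindle protein astrin, beside Cenpm (1.85 ± 0.09) and Kif15 (1.47 ± 0.16). Of the 42 S-phase genes 32 were higher and 1 lower (median 0.69), led by Cdca7 (1.71 ± 0.13). Of 17 regulators of the transcription of mitotic genes, a list that holds repressors too, 9 were higher and 1 lower. E2f8 (1.84 ± 0.18) and Mybl2 (1.18 ± 0.29), or B-Myb, were among those higher. Of the 26 other G2/M genes 15 were higher and 1 lower. Of 12 checkpoint and p53-response genes 6 were higher, among them Sfn (3.17 ± 0.08), Cdc25b (2.27 ± 0.15) and the Cdk1-inhibiting kinase Pkmyt1 (1.20 ± 0.17), and 3 were lower, among them Btg2 (-1.46 ± 0.06). Sfn is also a keratinocyte gene.

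The basal difference was present in single pools of cells. In 13 of 14 tag pools with at least 20 basal cells the sum of the 35 genes was above that of HR- cells of the same pool, and in 12 of 14 without the gene limit. In cells of tags 952 and 954 alone 18 of the 35 passed, and in those of tags 951 and 953 alone 33 did. The shares over all genes in these subsets are not given. Without the limit, tags 952 and 954 made up 35.2% to 75.5% of basal and 24.4% to 43.9% of HR- cells with 1 tag. The mix of pools differed between these lineages in the WT libraries (69.8% of basal against 24.4% of HR- cells in control, 75.5% against 31.9% after HU) and hardly in the Brca2mut/WT ones (45.9% against 43.9%, and 35.2% against 36.0%).

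Within the G2/M-high cells the direction was the opposite for many genes, a comparison chosen after the values were seen. Without the gene limit, the 35 genes summed to 6298, 6628, 7024 and 6651 CPM in G2/M-high HR- cells and to 5510, 5497, 5840 and 5685 CPM in basal ones. For 15 of the 35 the 4 basal values were all below the 4 HR- values, as they were for 27% of 13812 genes, and for 2 they were all above, as for 21.6%. Those above were Anln, with 128, 131, 136 and 132 CPM in basal against 87.3, 98.5, 107 and 92.3 CPM in HR- cells, and Kif23, with 85.5, 88.7, 89.1 and 84.6 against 72.4, 70.8, 74.4 and 74.1 CPM.

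Mki67 was farthest below, with 278, 293, 289 and 284 CPM in G2/M-high basal cells against 408, 417, 498 and 480 CPM in HR- ones. Kif11 had 65.1, 76.2, 63.7 and 61.4 CPM against 96.1, 101, 105 and 105 CPM, and Nusap1 had 165, 148, 164 and 148 CPM against 235, 233, 238 and 232 CPM. None of these 3 genes passed the test of basal against HR- cells over all cells, at either limit. Top2a, at 416, 438, 406 and 423 CPM in basal and 466, 450, 459 and 423 CPM in HR- cells, and Cks2, at 383, 408, 372 and 395 against 397, 415, 398 and 395 CPM, overlapped. The share of G2/M-high cells was larger in basal cells, as given above, and without the limit the summed level within them was smaller. With the limit the level was smaller except in WT HU, at 3412 CPM in basal against 3167 CPM in HR- cells. The marking list itself summed to 2176, 2539, 2157 and 2464 CPM in basal cells without the limit. In HR- cells it summed to 1589, 1661, 1757 and 1741 CPM. How far this moved the shares and the levels was not tested.

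HR+ luminal cells did not differ from HR- cells in 1 direction. With the limit 2 of the 35 genes were higher and 2 lower (28.8% of 14370 genes were higher and 31.9% lower), at a median log2 fold change of -0.41. Without it 10 were higher and 2 lower (33% and 33.8% of 15739 genes), at a median of 0.12. Anln was higher both ways. It had 19.9, 19.7, 9.57 and 10.3 CPM in HR+ cells with the limit, above the 4.42 to 8.21 CPM of HR- cells in every library, and its change was 1.01 ± 0.21 (edgeR adjusted p = 0.0024) and 1.05 ± 0.06 without the limit (edgeR adjusted p = 1.4e-05). Cks2 was also higher, by 0.39 ± 0.12 and 0.45 ± 0.05.

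Mki67 was lower in HR+ cells both ways. It had 26.0, 22.7, 29.8 and 19.5 CPM in HR- cells and 19.7, 14.4, 4.29 and 7.69 CPM in HR+ cells, below HR- in each library, and changes of -1.24 ± 0.27 (edgeR adjusted p = 0.0031) and -0.41 ± 0.06 without the limit (edgeR adjusted p = 0.0011). Ccna2 was lower with the limit (-0.92 ± 0.35) and at -0.13 ± 0.08 without it, where Cdc25c was lower (-0.38 ± 0.12). Aurka (0.48 ± 0.09), Prc1 (0.36 ± 0.05), Kif2c (0.36 ± 0.12), Ube2c (0.33 ± 0.07), Plk1 (0.26 ± 0.07), Top2a (0.25 ± 0.05), Tacc3 (0.20 ± 0.06) and Aurkb (0.17 ± 0.06) were the others higher without it. Among the other lists with the limit, 8 of 12 checkpoint genes were higher and none lower, including Cdc25b (2.24), Sfn (2.23), Gadd45a (0.94) and Cdkn1a (0.76), whereas 1 of 31 further mitotic genes was higher and 5 lower.

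The count of HR+ calls rested on which cells entered. Without the limit, tags 952 and 954 made up 85.4% to 90.5% of HR+ cells with 1 tag but 24.4% to 43.9% of HR- cells, and the 35 genes were higher in those tags: without the limit HR- cells held 1441, 1281, 1503 and 1523 CPM in tags 952 and 954 and 659, 750, 842 and 708 CPM in tags 951 and 953. Within tags 952 and 954 alone and without the limit, 2 genes were higher and 12 lower (median -0.20), and within tags 951 and 953 1 was higher and 11 lower (median -0.84). Over all cells without the limit 10 were higher and 2 lower (median 0.12), beside 33% of genes higher and 33.8% lower. The shares over all genes in the tag subsets are not given. Leaving out WT control left 1 higher and 13 lower with the limit, where the shares over all genes are also not given. In G2/M-high cells the HR+ values of 25 of the 35 genes were all below those of HR- cells (23.5% of 13462 genes) and only those of Anln were all above (19.1%), Anln having 131, 115, 147 and 135 CPM.

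HU was compared with control within each genotype, gene by gene, as the ratio of CPM between 2 libraries; a gene counted as higher or lower past 1.5-fold with at least 50 UMIs in 1 of them. In HR- cells of 1000 to 6000 genes, HU left the 35 genes within 1.5-fold in WT (none past it, against 5.42% of genes; median log2 ratio -0.16), and in Brca2mut/WT 18 were lower and none higher (4.67%; median -0.59). Without tag 951 11 genes passed in WT (median -0.55), and without tag 953 only 3 passed in Brca2mut/WT. The shares over all genes with a tag left out are not given. The lower values were spread over all roles, from Anln (-0.89), Cenpf (-0.88) and Kif23 (-0.81) to Tacc3 (-0.29), the smallest. Cenpf, for example, had 36.0 CPM in Brca2mut/WT control and 19.5 CPM in Brca2mut/WT HU, and 25.6 and 21.6 CPM in WT control and WT HU.

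Without the gene limit the Brca2mut/WT difference was smaller. All 35 genes were still below control there, with a summed log2 ratio of -0.16 (95% interval -0.17 to -0.15), but none of the 35 passed 1.5-fold in HR- cells in either genotype (6.98% of genes in WT and 5.39% in Brca2mut/WT), with medians of -0.12 and -0.15. The share of HR- cells removed by the limit was 39.7% in Brca2mut/WT HU and 23.2% to 29.4% in the other libraries.

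In basal cells with the limit the 35 genes were higher after HU in WT, with 25 past 1.5-fold and none lower (10.5% of genes; median 0.73). Top2a had 31.9 CPM in WT control and 73.0 in WT HU. The log2 ratio was 1.19 for Ccna2, 1.14 for Kif11 and 1.06 for Bub1, and Kif2c had the smallest, 0.29. In Brca2mut/WT 9 of 27 genes with enough UMIs were lower and none higher (5.92%; median -0.37), led by Nusap1, with 17.4 CPM in control and 5.05 in HU (-1.79), Ube2c (75.1 and 27.7 CPM, -1.44), Aurkb (-1.30), Aurka (-1.20) and Prc1 (-1.11). Without tag 954 16 genes passed in WT and 15 in Brca2mut/WT, where 5 passed without tag 951 and 4 without tag 953. For these counts, too, the shares over all genes are not given. Without the limit none of the 35 passed in WT (8.69%; median 0.34), and 4 were higher in Brca2mut/WT (5.14%; median 0.30), Ndc80 (0.70), Ttk (0.63), Bub1 (0.63) and Nuf2 (0.59), so the Brca2mut/WT direction turned. Of these, Ndc80 and Nuf2 form one kinetochore complex.

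Brca2mut/WT was compared with WT within each treatment, with medians and values of single genes given as log2 ratios. In HR- cells with the limit none of the 35 genes passed 1.5-fold in control (4.07%; median 0.21), and only Aurkb, at -0.68, did after HU (3.53%; median -0.23). Without the limit none passed in control (5.73%; median 0.20) or after HU (8.81%; median 0.17). In basal cells with the limit only Ube2c, at 0.62, passed in control (5.62%; median 0.13), and 29 of 35 were lower in Brca2mut/WT after HU (10.9%; median -0.97), from Nusap1 (-1.95) and Aurkb (-1.90) to Ect2 (-0.38) as the smallest. In basal control 7 passed without tag 951 (median -0.32) and 7 without tag 953 (median 0.33), again with no share over all genes given. Without the limit none passed in control (4.89%; median -0.04) or after HU (7.16%; median -0.02). In control this depended on how the pools were weighted. Within tags 951, 952, 953 and 954 the summed log2 ratio was 1.24, 1.64, 0.12 and 0.099, above 0 in all 4. The mean of the pools with equal weights gave a log2 ratio of 0.77 (1760 against 1035 CPM). However, tag 952 had only 5 basal cells in Brca2mut/WT control.

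**Figure D5:**
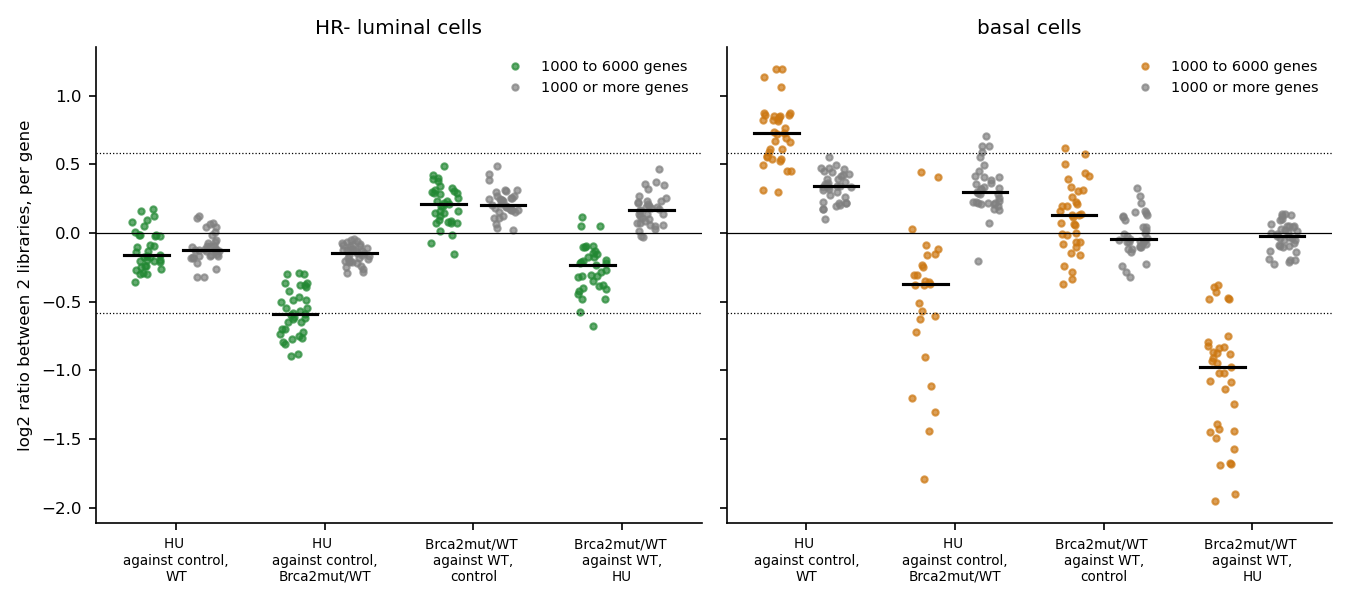
Log2 ratio of each of the 35 genes in the 4 comparisons between libraries, in HR- luminal (left) and basal cells (right); colour is for cells of 1000 to 6000 genes and grey for 1000 or more, black bars are medians, and dotted lines mark 1.5-fold. The medians of basal cells lie at 0.73, -0.37, 0.13 and -0.97 with the limit and between -0.04 and 0.34 without it.

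The ratios also varied between the pools. Within tags 951, 952, 953 and 954, the summed log2 ratio of HU to control in WT HR- cells with the limit was 0.59, -1.06, -0.44 and -0.17, and in Brca2mut/WT it was -0.64, -0.20, -1.12 and 0.04. In WT basal cells the ratio was 1.71, 0.36, -0.05 and 0.85, and in Brca2mut/WT basal cells it was -1.40, -1.35 and 0.54 in tags 951, 953 and 954, with too few cells of tag 952. With the limit, Brca2mut/WT against WT after HU in basal cells kept 1 sign, at -0.89, -1.96, -2.01 and -0.23. There were 10 cells of tag 952 in Brca2mut/WT HU. Without the limit the sign was not kept, as the sum was higher in Brca2mut/WT in 2 of the tags. No comparison of HR- cells had 1 sign in all tags, and whether a tag number stands for the same kind of pool in each library is not given.

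In HR+ luminal cells the few UMIs limited the comparison to summed values. With the limit the log2 ratio of HU to control was -0.55 in WT (95% interval -0.64 to -0.46) and 0.77 in Brca2mut/WT (0.62 to 0.92), and that of Brca2mut/WT to WT was -1.60 in control (-1.73 to -1.48) and -0.28 after HU (-0.40 to -0.17). Without the limit the same ratios were -0.06, -0.17, -0.01 and -0.12. With the limit, cells with exactly 1 tag gave HR+ sums of 510, 433, 181 and 220 CPM in the 4 libraries. Over all HR+ cells the sums were 617, 422, 203 and 347 CPM. The HU difference in Brca2mut/WT was thus smaller in 1-tag cells, and the genotype difference after HU larger. Of the HR+ cells, 42 of 176, 26 of 146, 30 of 124 and 54 of 123 carried no tag. Bub1b and Kif20a were at 0 UMIs in HR+ cells of Brca2mut/WT control with the limit, a library with 124 such cells.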

How the data were processed

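UMI counts per gene and cell were deposited for 4 libraries, made by the authors with Cell Ranger (6.0.2 per the submitters' processing notes, 6.1.1 per the matrix headers) on an mm10 reference, with antibody-tag counts as extra features. Libraries hold 243430259 to 302135155 gene UMIs. Intervals cover counting error only.

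The members and lists were chosen with earlier results of these data known. All 35 members were named, with the 10 most correlated genes and up to 4 genes of each other list. Cells were kept at 1000 or more genes (with and without an upper limit of 6000) and under 5% mitochondrial UMIs. UMIs were summed per library and lineage and tested with edgeR 4.0.16 (R 4.3.3; TMM, filterByExpr, quasi-likelihood, library as a block, adjusted p under 0.05). The block pairs sums from 1 library. Libraries were compared by CPM ratio (1.5-fold, 50 UMIs in 1 of 2, counts floored at 3). For G2/M-high cells and cell shares, cells were thinned to 5000 UMIs, and cells with fewer were left out. A tag was present at 150 UMIs or more. DESeq2 1.42.0, other filters, thinned sums, tag subsets and leaving out libraries or tags were alternatives. On simulated counts edgeR recovered 16%, 74%, 98% and 100% of basal genes changed 1.25-, 1.5-, 2- and 4-fold (50 each), and called 7 of 14513 unchanged genes. The simulated spread between libraries was preset and the same for every gene, not estimated from these data. These shares may therefore be too high for genes that varied more. Python 3.11.15 was used. Raw reads and cell-to-mouse assignments were not analysed here.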

Additional observations from a re-analysis of the deposited data

Results flagged for a closer look

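The summed log2 ratios of the 35 genes, in cells of 1000 to 6000 genes, had opposite signs under the same contrast in 4 pairs; each ratio compares 1 library with 1 library, and in no pair was the difference tested. In HR- luminal cells Brca2mut/WT against WT was 0.21 in control (95% interval 0.19 to 0.23) and -0.23 after HU (-0.25 to -0.20). In basal cells HU against control was 0.72 in WT (0.68 to 0.75) and -0.44 in Brca2mut/WT (-0.50 to -0.39), and Brca2mut/WT against WT was 0.16 in control (0.11 to 0.21) and -1.002 after HU (-1.05 to -0.95). In HR+ luminal cells HU against control was -0.55 in WT and 0.77 in Brca2mut/WT. In HR+ cells with exactly 1 tag the differences were smaller, at 510 CPM in control and 433 CPM after HU in WT. In Brca2mut/WT they held 181 and 220 CPM. Without the gene limit the basal ratios were 0.33 and 0.28 for HU and 0.015 and -0.03 for genotype, the HR- ones 0.23 and 0.15, and the HR+ ones -0.06 and -0.17, so that only the basal genotype pair still had opposite signs, the first of them with an interval (-0.006 to 0.035) that spans 0. With the 4 tags weighted equally and no gene limit, the basal ratios were 0.71 and -0.11 for HU, again of opposite sign, and 0.77 and -0.05 for genotype; 1 of the pools behind the Brca2mut/WT control value had 5 cells.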

How the results depend on the processing

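The direction over the 35 genes was kept in every alternative for basal against HR- cells, and all 35 stayed higher in HR- cells over 6000 genes in all 10 alternatives. Basal calls fell from 29 to 18 in tags 952 and 954 and ran from 25 to 29 when 1 library was left out; Ccnb2 turned to -0.11 (tags 952 and 954, no gene limit). HR+ calls (4 in all) became 12 with no low-count filter (2 higher, 10 lower). With no gene limit they were also 12, but 10 higher and 2 lower. They became 8 with no mitochondrial limit (2 higher, 6 lower). In 1-tag cells they became 13 (2 higher, 11 lower), and 14 without the gene limit (12 higher, 2 lower). Tags 952 and 954 gave 11 (1 higher, 10 lower), and 14 without the gene limit (2 higher, 12 lower). Tags 951 and 953 gave 16 (1 higher, 15 lower), and 12 without the limit (1 higher, 11 lower). HR+ calls ran from 4 to 14 when 1 library was left out. Cks2 turned to -0.19 in tags 951 and 953 without the limit. Without the replicate block, there were 27 basal, 4 HR+ and 35 over-limit calls.

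Counts past 1.5-fold between libraries were 0 without the gene limit, in all cells and in 1-tag cells, for HU in Brca2mut/WT HR- (18 with it), genotype after HU in HR- (1) and basal (29), and genotype control in basal (1), 0 and 7 for HU in WT basal (25), and 4 and 1 for HU in Brca2mut/WT basal (9). Genotype control in HR- (0) gave 1 in 1-tag cells without the limit. At a 5/4-fold threshold, in HR- cells, HU in WT gave 1 lower (11.2% of genes) and HU in Brca2mut/WT 32 lower (8.32%). Genotype control gave 7 higher (6.64%) and genotype after HU 12 lower (4.05%). In basal cells HU in Brca2mut/WT gave 18, with 2 higher and 16 lower (11.2% and 9.39%). Genotype control gave 9 there, with 7 higher and 2 lower (9.74% and 10.8%). Genotype after HU in HR- gave 0 with no mitochondrial limit, 6 in 1-tag cells and 2 with TMM; genotype control in basal gave 2 with no mitochondrial limit, 2 in 1-tag cells and 3 with doubled lineage cuts; HU in Brca2mut/WT basal gave 3 at 200 UMIs. Leaving out 1 tag gave, in HR-, 0 to 11, 3 to 21, 0 to 1 and 0 to 5 (HU in WT, HU in Brca2mut/WT, genotype control, genotype after HU) and, in basal, 16 to 31, 4 to 15, 0 to 7 and 22 to 34. Summed log2 ratios leaving out 1 tag ran, in the same order, from -0.48 to 0.074, -0.60 to -0.32, -0.016 to 0.30 and -0.37 to -0.026, and from 0.55 to 0.84, -0.92 to -0.15, -0.25 to 0.38 and -1.33 to -0.71. Sums that changed sign were, in HR-, HU in WT (0.043, 1 tag, no limit; 0.074 without tag 953), genotype control (-0.016 without tag 951; -0.070 with tags weighted equally) and genotype after HU (0.15 without the limit; 0.14 in 1-tag cells) and, in basal, HU in Brca2mut/WT (0.28; 0.22) and genotype control (-0.25 without tag 951; -0.0044 with tags weighted equally). The cause was not tested. Shares over all genes are not given, here or above, for calls in tag subsets, in 1-tag cells or with a tag or library left out. They are also not given for the other mitochondrial, count and lineage cuts. The tag subsets, equal tag weights and 1-tag cells without the limit were chosen after seeing the data.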
